A study of Mus musculus with 6 samples.

Results

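The response of control F9 cells to retinoic acid was read from the 2 libraries, of 6 in the series, that carry the shGFP hairpin: 1 from untreated cells (UT) and 1 from cells given 1 µM all-trans retinoic acid (RA) for the last 48 hours before harvest. F9 is an established mouse teratocarcinoma line, and all 6 cultures grew on gelatin-coated plastic in DMEM with charcoal-stripped calf serum, a serum from which most small lipophilic molecules have been removed. The shGFP hairpin is directed at a gene that mouse cells lack and serves as the control for the hairpins in the other lines, shCtbp2 against a transcriptional corepressor and shRxr against the retinoid X receptors. The labels do not say whether a line is a clone or a pool, nor whether libraries came from separate cultures. Since each group holds 1 library, no replicate spread exists and no test was possible: every difference is an effect size, and each interval covers counting error only.

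Retinoic acid is made from vitamin A inside cells and binds nuclear receptors of the Rar family, which sit on DNA as pairs with Rxr receptors. Without ligand the pair recruits corepressors, and with ligand it exchanges them for coactivators at nearby genes. F9 cells resemble the pluripotent cells of the early embryo, and retinoic acid is classically used to turn them into cells like the primitive endoderm, the layer that lays down an early basement membrane.

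Libraries held between 9955808 and 13322506 reads counted in genes, with 12416100 in shGFP UT and 13322506 in shGFP RA. A level here is a gene's reads per 10000000 counted reads, called normalised reads, so 1 read was worth 0.805 in shGFP UT and 0.751 in shGFP RA. Log2 changes were taken on the level plus 10, which keeps genes of a few reads from giving very large values, and 12332 of the 25904 deposited genes, those whose mean level across all 6 libraries reached 20, were tested for size. A gene with few reads untreated can reach that minimum only through libraries where it is high, so counts over the tested members of a list are descriptions. Ctbp2, the corepressor gene that the shCtbp2 hairpin targets, stood at 1811 untreated and 701 with RA in shGFP, against 210.1 and 55.4 under the shCtbp2 hairpin and 1632 and 1132 under the shRxr hairpin.

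The markers of the response were read in the same 2 libraries that define it, so their differences are descriptions and no separate check of the labels. Paired values are given here as the untreated level, then the level with RA. Stra8, a gene first known for its response to retinoic acid and needed for entry into meiosis (ENSMUSG00000029848, chromosome 6, 34870163 to 34889342 in mm9), stood at 18.5 normalised reads in shGFP UT and 6428 in shGFP RA. Cyp26a1, the enzyme that breaks retinoic acid down (ENSMUSG00000024987, chromosome 19, 37772298 to 37776018), stood at 8.86 then 2894. Gata6, a factor of the primitive endoderm, stood at 29.8 then 739, and Otx2, a homeobox factor of the early epiblast and forebrain, at 772 then 22.5. The untreated library held the markers of undifferentiated cells, with Pou5f1 at 18172, Sox2 at 4845, Nanog at 6748 and Utf1 at 2432, and each was lower with RA, at 8529.9, 1480.2, 3258 and 514. In bulk RNA, fewer cells of a type and less RNA per cell cannot be told apart.

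Retinoic acid receptor pairs bind repeats of a 6-base motif, and the promoters of Cyp26a1 and Rarb are shown because they hold such a repeat close to the start of genes that stood far higher with RA. The search took the motif AGGTCA and its variants, which were GGGTCA, then also AGTTCA, and last of all GGTTCA, on both strands, as direct repeats of any of these followed by any of them, in windows from 250 bases before to 50 after each RefSeq start (GRCm38.p6). With 5 bases between the motifs the repeat was found in 32 of 32851 promoters (0.0974%), and with 2 and 1 bases between them in 88 (0.268%) and 73 (0.222%). Of the 24 genes on a list of classical retinoic acid targets, 14 had a promoter among those searched. Of these, 2 held the repeat with 5 bases between motifs and 0 held it with 2 or 1. Counted by gene, the repeat with 5 bases was in 31 of 27025 genes (0.115%) and in 4 of the 8707 tested genes. Among 290 genes at least 4-fold higher, 2 held the repeat with 5 bases, 2 with 2 bases and 0 with 1. Capitals mark the repeat, which lies on the reverse strand in Cyp26a1 (chr19:37697558-37697857, plus strand) and on the forward strand in Rarb (chr14:16575427-16575726, minus strand), and begins 32 and 53 bases before the start.
Cyp26a1: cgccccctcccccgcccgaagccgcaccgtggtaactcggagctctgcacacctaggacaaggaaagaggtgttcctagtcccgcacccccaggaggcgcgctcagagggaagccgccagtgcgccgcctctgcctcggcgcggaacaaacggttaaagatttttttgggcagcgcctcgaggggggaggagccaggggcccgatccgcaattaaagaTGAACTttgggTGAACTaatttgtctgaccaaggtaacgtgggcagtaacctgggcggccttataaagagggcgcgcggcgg
Rarb: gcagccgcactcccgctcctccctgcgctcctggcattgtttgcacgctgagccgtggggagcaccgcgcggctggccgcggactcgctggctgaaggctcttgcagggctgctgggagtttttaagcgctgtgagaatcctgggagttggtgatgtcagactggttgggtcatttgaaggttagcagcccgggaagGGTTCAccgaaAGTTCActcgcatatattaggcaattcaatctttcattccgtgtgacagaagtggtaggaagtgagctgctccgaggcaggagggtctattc
A match describes the letters in the window and not a bound site, and a window without a match says nothing about the receptor.

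On the level plus 10, which all counts past a fold use, 1649 of the 12332 genes tested (13.4%) were at least 2-fold higher with RA, 872 (7.07%) were at least 2-fold lower and 9811 (79.6%) lay between. Past 4-fold the counts were 435 higher (3.53%) and 122 lower (0.989%), past 8-fold 124 and 16, past 16-fold 41 and 2, and past 32-fold 17 and 0. The 2 genes more than 16-fold lower on this scale were Otx2 and Aire; ratios of the levels themselves, which are given for single genes, are larger, as for Evx1 and Otx2. The median level of the higher genes was 58 untreated and 233 with RA, and together they took 2.80% of reads untreated and 9.10% with RA. Lower genes had a median of 376 untreated and 118 with RA, and took 9.37% and 3.48% of reads. These shares depended on level. In the fifth of genes lowest untreated (up to 71.7) 36.9% were higher and 5.10% lower. In the fifth highest untreated (from 1049) 2.03% were higher and 9.18% lower. The shares over all genes are thus not matched in level to a list of mostly low or mostly high genes. Setting the upper quartiles of the libraries equal moved the median of all genes by -0.15 on the log2 scale and the counts to 1359 higher and 1120 lower, so that 54.8% of the called genes were higher in place of 65.4%.

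**Figure D1:**
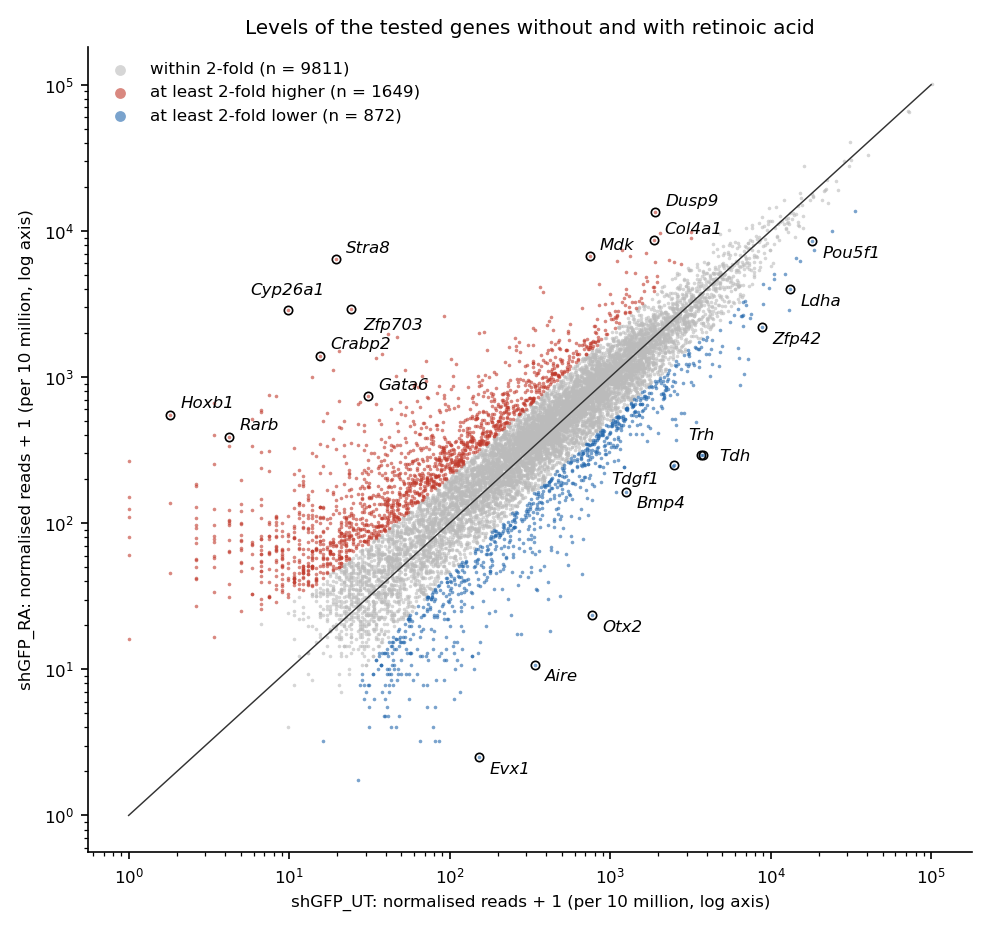
Level in shGFP UT (x axis, normalised reads plus 1, log scale) against the level in shGFP RA (y axis, same scale) for the 12332 tested genes, with genes at least 2-fold higher or lower in colour and a few named. Stra8 (18.5 to 6428), Cyp26a1 and Hoxb1 lie far above the diagonal, and Otx2 and Evx1 far below it.

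Genes that handle retinoids were among those with the largest differences. On the list for retinoid uptake, synthesis and breakdown, 8 of 12 tested members were at least 2-fold higher and 0 were at least 2-fold lower. The shares over all tested genes were 13.4% and 7.07%. The median log2 change was 3.66, against a median of 0.12 over all genes tested. With no minimum, 9 of the 17 genes on the list were higher and 0 lower, with a median of 1.02. Uptake was represented by Stra6, the membrane receptor for vitamin A bound to its carrier, which stood at 6.44 then 748 and was 116-fold higher (95% counting interval 58.7 to 269.8). Inside the cell, the retinoic acid carrier Crabp2 stood at 14.5 then 1399, which is 96.5-fold higher (95% counting interval 60.9 to 163). The other acid carrier, Crabp1, was at 46.7 then 48.8. Both carriers bind the same ligand, and only the former passed the 2-fold size.

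Enzymes of retinoic acid synthesis differed among themselves, with Aldh1a2 within 2-fold and Rdh10 slightly past it. Aldh1a2, which makes retinoic acid from retinal, stood at 34.6 then 30.0; its relatives Aldh1a1 and Aldh1a3 were below the minimum, at 0 then 0.751 and 7.25 then 9.01. Rdh10, which makes retinal from retinol, stood at 71.7 then 156, and Dhrs3, which turns retinal back into retinol, at 26.6 then 673. All 3 Cyp26 genes, whose products oxidise retinoic acid for clearance, were far higher: Cyp26a1 was 327-fold higher (95% counting interval 182 to 655), Cyp26b1 103-fold higher (95% counting interval 53.8 to 225), and Cyp26c1, with 1 read in shGFP UT and a level of 137 with RA, had a ratio of 169.6 with an interval of 30.1 to 6736. The genes of the list that lay within 2-fold were Crabp1, Fabp5, Rdh11 and Aldh1a2.

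The receptors themselves were mostly within 2-fold. Rara stood at 1091 then 1445, Rarg at 2791 then 2534, Rxra at 520.3 then 805 and Rxrb at 605 then 673 normalised reads. Rxrg was below the minimum, at 18.5 then 4.5. Rarb was the exception in its family, at 3.22 then 390.3, or 121-fold higher (95% counting interval 47 to 446) from 4 reads. Of the wider list of retinoid and orphan nuclear receptors, 2 of 18 tested members were at least 2-fold higher and 4 were at least 2-fold lower. Over all genes the shares were 13.4% and 7.07%. The median log2 change of this list was 0.01, and -0.15 with equal upper quartiles. The other higher member was Nr2f2, a COUP-TF orphan receptor, at 4.83 then 122. The 4 lower members were Nr0b1, Nr5a2, Nr1d1 and Nr1d2: the first pair belongs to the pluripotency network of mouse embryonic stem cells, and stood at 2754 then 564 and at 863 then 244, while the second pair are repressors of the circadian clock, at 189 then 89.3 and 358 then 139.

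Coregulators of these receptors were mostly near their untreated levels. Of this list, 1 of 25 tested members was at least 2-fold higher and 2 were at least 2-fold lower (13.4% and 7.07% over all genes). The median log2 change was 0.01, and with equal upper quartiles it was below 0, at -0.16. Nrip1, a corepressor that binds ligand-bound receptors, stood at 275 then 1475. Ctbp2 was 2.58-fold lower (95% counting interval 2.39 to 2.79), and Rcor2, a partner of the histone demethylase Kdm1a, stood at 1078 then 488. The corepressor Ncor1 was at 6328 then 4213, within 2-fold.

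A list of 24 classical retinoic acid targets, genes chosen because textbooks and earlier work name them as responsive, had 23 members tested; 23 were at least 2-fold higher and 0 lower, with a median log2 change of 4.29. The 1 member not tested was Rarres1, at 2.42 then 9.76. The highest of them was Stra8, 347-fold higher (95% counting interval 231 to 548), and the smallest change of the 23 was that of Bhlhe40, a clock-related repressor, from 229 to 625. Between these lay the homeobox gene Cdx1 at 12.9 then 999.8, the zinc finger factors Tshz1 at 16.1 then 563 and Zfp503 at 6.44 then 312, the transglutaminase Tgm2 at 64.4 then 404 and the growth factor receptor Ret at 14.5 then 74.3. This list is no independent evidence of direction, as it was put together with these results known.

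The 25 highest genes by log2 change held several that are not on that list. Zfp703, a zinc finger corepressor, stood at 23.4 then 2899.6 and came next after Cyp26a1 in size. Pmp22, a small membrane protein best known from myelin, stood at 19.3 then 1497, and Gas1, a membrane protein that binds Hedgehog, at 17.7 then 1109. Ptges, which makes prostaglandin E2, stood at 40.3 then 1982.

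Also among the same 25, the adhesion protein Sdk2 stood at 5.64 then 595, the adhesion receptor Gpr124 at 45.9 then 1866 and Prtg, an immunoglobulin protein of the early embryo, at 37 then 1429.9. The membrane metalloprotease Mmp15 stood at 91.8 then 2602. Fndc1 stood at 4.83 then 338, and Spsb1, an adaptor of ubiquitin ligases, at 19.3 then 680.1. Most remaining members of the 25 were Hox genes, Cdx1, Foxa1 and the retinoid genes given above. In each of the 25 the level with RA was more than 20 times the untreated level.

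**Figure D2:**
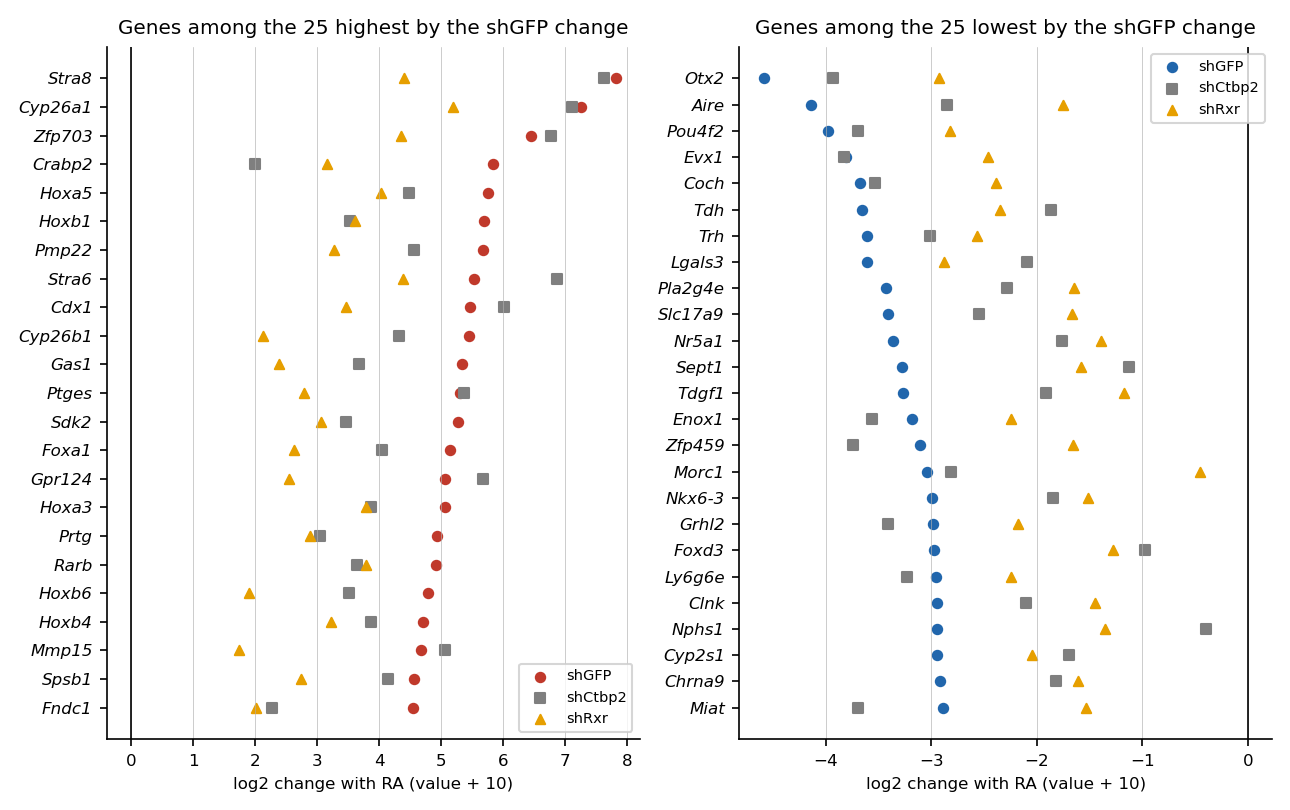
Log2 change on the level plus 10 (x axis) of genes among the 25 highest and the 25 lowest tested in shGFP (y axis, ordered by that change), with the values of the same genes in shCtbp2 and shRxr as further points. Highest in shGFP is Stra8 at 7.82 and lowest Otx2 at -4.59.

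Hox genes, the homeobox factors that set position along the body axis, lie in 4 clusters. Most had few reads untreated and passed the minimum mean through the libraries given RA, so the tested members alone could hardly lie elsewhere than higher. With no minimum, 9 of 11 Hoxa genes, 10 of 10 Hoxb genes, 5 of 9 Hoxc genes and 4 of 9 Hoxd genes were at least 2-fold higher and 0 were lower. Of the Hoxa cluster, 8 of 11 members were tested. In order from the 3′ side, Hoxa2 stood at 1.61 then 78.1, Hoxa3 at 2.42 then 403, Hoxa4 at 1.61 then 185 and Hoxa5 at 2.42 then 661. The next tested members were Hoxa6 at 0.805 then 44.3, Hoxa7 at 15.3 then 109.6 and Hoxa10 at 5.64 then 45.8. Hoxa9 and the 5′ end of the cluster were below the minimum, with Hoxa9 at 0 then 15.8, Hoxa11 at 0 then 4.5 and Hoxa13 at 3.22 then 6.0.

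Of the Hoxb cluster, 7 of 10 members were tested. Hoxb1 stood at 1 read (0.805) untreated and at 551 with RA, a ratio of 684 whose counting interval runs from 122 to 27055. Hoxb2, Hoxb5 and Hoxb6 had 0 reads untreated and stood at 109.6, 151 and 266 with RA; against a floor of 3 reads in the untreated library they were at least 45.4-fold, 62.4-fold and 110.3-fold higher. Hoxb4 stood at 3.22 then 337. Members far from the 3′ end were included: Hoxb9 stood at 48.3 then 671 and Hoxb13 at 5.64 then 236. Hoxb3, Hoxb7 and Hoxb8 missed the minimum mean, at 0 then 66.8, 1.61 then 54.8 and 0.805 then 97.6.

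The Hoxc and Hoxd clusters stayed at low levels. Hoxc13 was the only tested Hoxc gene, at 44.3 then 75.1, within 2-fold. Below the minimum, Hoxc4 stood at 4.83 then 52.5, Hoxc5 at 0 then 40.5, Hoxc9 at 0.805 then 33, Hoxc10 at 4.03 then 24 and Hoxc8 at 1.61 then 21.8. Hoxc6 was at 1.61 then 9.76, and Hoxc11 and Hoxc12 had at most 2 reads in either library. The tested members of the Hoxd cluster were Hoxd1 at 1.61 then 48.8, Hoxd8 at 1.61 then 41.3 and Hoxd9 at 2.42 then 33, each at least 2-fold higher; with 50 in place of 10 added to each level none of these 3 reached 2-fold. The remaining Hoxd genes ended between 0.751 (Hoxd10) and 31.5 (Hoxd3) with RA, with Hoxd13 at 4.83 then 19.5, Hoxd4 at 1.61 then 4.5, Hoxd11 at 0.805 then 2.25 and Hoxd12 at 1.61 then 4.5.

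Many cofactors that bind DNA beside Hox proteins were higher as well. Of 11 tested members 6 were at least 2-fold higher and 0 were at least 2-fold lower, where 13.4% and 7.07% of all genes were. Their median log2 change was 1.16. Meis1 stood at 33.8 then 649, Meis2 at 112 then 716 and Meis3 at 26.6 then 89.3. Pbx2 and Pknox2 were also past 2-fold, at 556 then 1388 and at 28.2 then 75.1. Tgif1, a repressor of retinoid and Smad signals, stood at 2389 then 1214, a log2 change of -0.97.

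**Figure D3:**
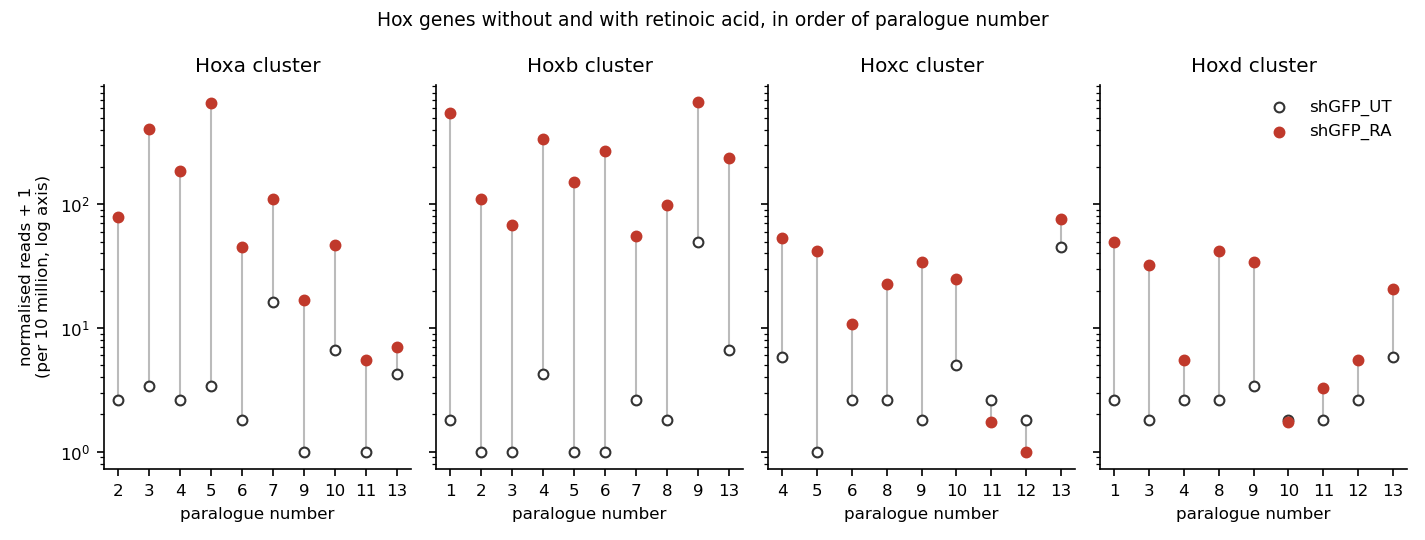
Level (y axis, normalised reads plus 1, log scale) of Hox genes in shGFP UT and shGFP RA, by cluster (panels) and paralogue number (x axis). The libraries lie far apart for most Hoxa and Hoxb genes, as for Hoxa5 (2.42 to 661), and all Hoxc and Hoxd genes stay below 100.

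The factors that define the primitive endoderm were higher with RA, with 1 exception. On this list, 12 of 14 tested members were at least 2-fold higher and 1 was at least 2-fold lower. The median log2 change was 2.63. Over all tested genes 13.4% were higher and 7.07% lower, here and for the endoderm, basement membrane and keratin counts below. Gata4 and Gata6, the zinc finger factors that can start this lineage, stood at 155 then 883 and at 29.8 then 739. The Sox factors Sox7 and Sox17 stood at 271 then 1277 and 22.6 then 101. Foxa1 was 106-fold higher (95% counting interval 48.5 to 290.1), Foxa2 stood at 4.03 then 196 and Foxq1 at 5.64 then 306. Pdgfra, a growth factor receptor of the early primitive endoderm, stood at 55.6 then 458.

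Hnf4a, a nuclear receptor of the visceral endoderm, went the other way, from 98.3 to 27.8. Eomes lay within 2-fold at 210.2 then 285. Most markers of the visceral endoderm were at low levels: of 19 members of that list 13 missed the minimum, with Alb, Apoa2, Apoc2 and Cer1 at 0 reads in both libraries, Afp at 0.805 then 0, Apoa1 at 0.805 then 0.751 and Ttr at 0 then 4.5. Of the 6 tested, 3 were at least 2-fold higher, Cubn, Ihh and Lefty1, and 1 lower, Hnf4a. Ihh, a Hedgehog ligand, stood at 13.7 then 73.6 and Lefty1, an inhibitor of Nodal, at 101 then 318. Apoe, a secreted apolipoprotein that holds most of the reads of this list, stood at 2912 then 1556.

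Endoderm that takes up proteins expresses large scavenger receptors and lysosomal proteases. Among these, 8 of 13 tested members were at least 2-fold higher, 0 were at least 2-fold lower and the median log2 change was 1.35. Lrp2 (megalin) stood at 668 then 2963, its partner Cubn (cubilin) at 36.2 then 248 and their adaptor Dab2 at 104 then 862. Lrpap1, the chaperone of this receptor family, stood at 1432 then 5126. The cathepsins Ctsb, Ctsl, Ctsz and Ctsh were also past 2-fold, with Ctsb at 1316 then 3571 and Ctsl at 1844 then 4123.

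Basement membrane genes were higher or near their untreated levels. Of 23 tested members 12 were at least 2-fold higher and 0 were at least 2-fold lower, with a median log2 change of 1.11. After correction for GC content and length 9 were higher and the median was 0.85. With equal upper quartiles 11 were higher and the median was 0.95. The paired collagen IV chains Col4a1 and Col4a2 stood at 1872 then 8672 and at 1104 then 6184; the former was 4.63-fold higher (95% counting interval 4.43 to 4.85). Laminin chains Lama1 and Lamb1 stood at 1248 then 5214 and 1003 then 3690.0, whereas their partner Lamc1 was at 6993 then 10458, a log2 change of 0.58. Serpinh1, the chaperone that collagen needs to fold, stood at 1186 then 7421, and the proteoglycan Hspg2 (perlecan) at 2339 then 6367. The nidogens Nid1 and Nid2, which link laminin to collagen IV, lay within 2-fold at 1387 then 1506 and 4216 then 4959, as did Sparc at 3096 then 5436 and Fn1 at 5115 then 7000.2.

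Genes of the parietal endoderm and the plasminogen system showed 10 of 13 tested members higher and 1 lower, with a median log2 change of 2.22. With no minimum, 11 of the 16 on the list were higher and 1 lower, with a median of 1.63. Stra6, already counted among the retinoid genes, is on this list too and had its largest log2 change, 5.53. Plat, the tissue plasminogen activator and a standard readout of F9 differentiation, stood at 19.3 then 456 and Plau, the urokinase type, at 8.05 then 80.3. The lower member was Fst (follistatin, an activin antagonist) at 122 then 27. Pth1r, the receptor for parathyroid hormone and its related peptide, stood at 13.7 then 111. Thbd (thrombomodulin), a marker of later parietal cells, was below the minimum at 17.7 then 14.3.

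Keratins are the filament proteins of epithelia, and Krt18 and Krt19 are also among the members counted in the list just given. Of the 4 keratins tested 3 were higher, with Krt8 at 299.6 then 922, Krt18 at 68.5 then 484 and Krt19 at 25 then 204. Krt17 was lower, at 167 then 18.8. Of general secretory genes 3 of 30 tested members were at least 2-fold higher and 0 lower, below the 13.4% and 7.07% over all genes. The higher ones were the cargo receptor Tmed3 (85.4 to 272) and the factors Creb3 (176 to 403) and Creb3l2 (213 to 670.3).

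**Figure D4:**
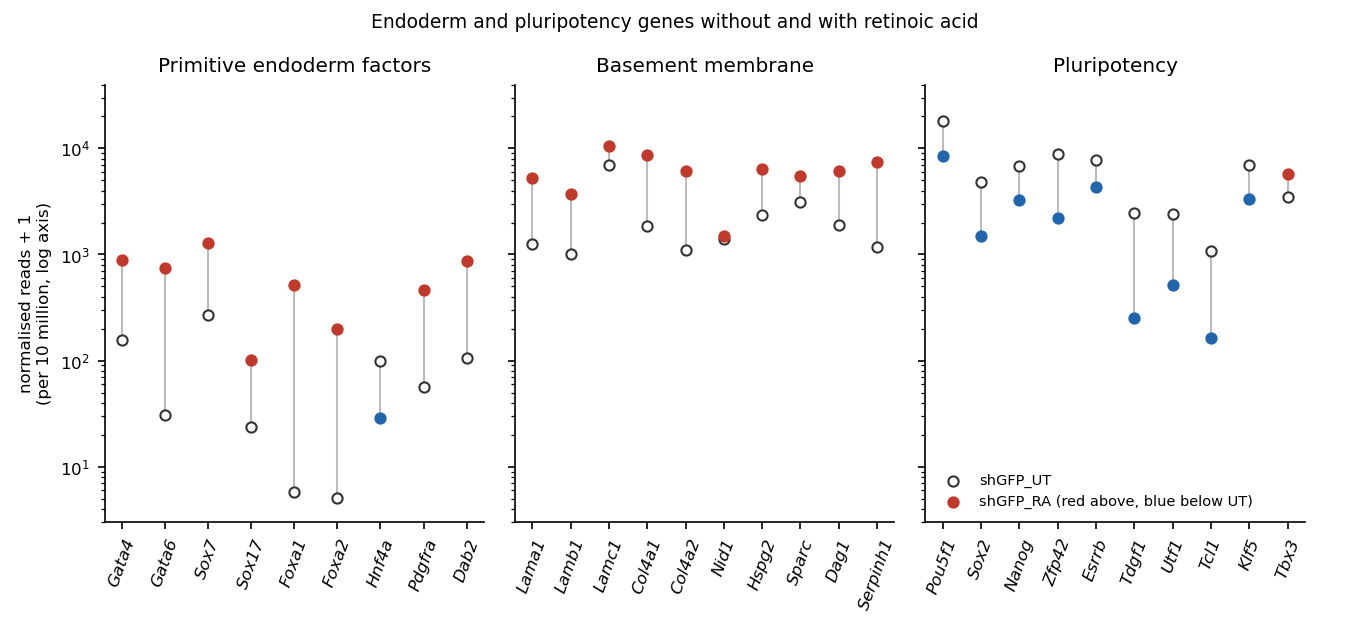
Levels (y axis, normalised reads plus 1, log scale) in shGFP UT and shGFP RA, joined by lines, of members of the primitive endoderm, basement membrane and pluripotency lists (panels, genes on the x axis). Most endoderm genes lie higher with RA, Hnf4a (98.3 to 27.8) among them lies lower, and most pluripotency genes lie lower.

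Most core pluripotency genes were lower with RA, and all were still detected. On this list, 0 of 17 tested members were at least 2-fold higher and 10 were at least 2-fold lower. The median log2 change was -1.07. Over all tested genes 13.4% were higher and 7.07% lower, here and for the naive genes below. Pou5f1 (Oct4), the central factor, was 2.13-fold lower (95% counting interval 2.08 to 2.18) and Nanog stood at 6748 then 3258; both lie close to the 2-fold size, and Nanog was under it after correction for GC content and length, at a log2 change of -0.83. Sox2 was 3.27-fold lower (95% counting interval 3.11 to 3.45). Larger differences were seen in Utf1, a chromatin factor of embryonic stem cells, at 2432 then 514, and in Tdgf1 (Cripto), the coreceptor of Nodal, at 2483 then 248. The 7 members within 2-fold included Sall4 at 6144 then 4575 and Dppa2 at 575 then 672.

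Genes of the naive state, the earlier of the pluripotent states, gave 1 of 14 higher and 8 lower, with a median log2 change of -1.08. Tcl1, a cofactor of Akt kinase, stood at 1080.0 then 163, Prdm14, a repressor of germ and stem cells, at 511 then 92.3, and Dnmt3l, a cofactor of DNA methyltransferases, at 2529 then 512. Zfp42 (Rex1) stood at 8843 then 2201. Gbx2 was the higher member, at 24.2 then 113; it is also a classical retinoic acid target. Klf4, Tbx3 and Tfcp2l1 were within 2-fold, at 1334 then 1067, 3457 then 5684 and 9891 then 7394.

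Primed-state genes had no common direction, and their counts stand beside 13.4% higher and 7.07% lower over all tested genes. Otx2 was 34.3-fold lower (95% counting interval 23.8 to 51.1) and is the lowest gene of all tested (ENSMUSG00000021848, chromosome 14, 49277354 to 49287319). Fgf5, the usual marker of this state, was below the minimum at 10.5 then 3.0. Higher members were Sox3 at 20.1 then 149, Sox4 at 164 then 1031 and the adhesion protein Cdh2 at 118 then 372, so that 3 of 10 tested members were higher and 1 lower. The de novo methyltransferases Dnmt3a and Dnmt3b were at 1136 then 1414 and at 1539 then 1714.

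Transcription factors among the 25 lowest genes are described first. Aire, which drives tissue genes in the thymus, stood at 339 then 9.76, the neural factor Pou4f2 at 419.6 then 17.3 and the homeobox factors Evx1 and Nkx6-3 at 151 then 1.5 and 141 then 9.01. Evx1 ended at 2 reads, a ratio of 101-fold lower with an interval of 27.5 to 839. Foxd3, a factor that keeps stem cells undifferentiated, stood at 674 then 77.3, and Grhl2, a factor of epithelia, at 342 then 34.5. Nr5a1 (SF-1), a nuclear receptor of steroid tissues, stood at 263 then 16.5.

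Of the others of the 25, Tdh, the threonine dehydrogenase on which mouse embryonic stem cells depend, stood at 3786 then 291 and was 13-fold lower (95% counting interval 11.7 to 14.5). Trh, the precursor of thyrotropin-releasing hormone, stood at 3670.2 then 292, the lectin Lgals3 at 486 then 30.8 and Sept1, a septin, at 2456 then 245. Lower too were the extracellular protein Coch (672 to 43.5), the phospholipase Pla2g4e (276 to 16.5) and the vesicular nucleotide transporter Slc17a9 (408 to 29.3). Ending at 10 normalised reads or fewer were Ly6g6e at 114 then 6.0, Clnk at 84.6 then 2.25, Chrna9 at 106 then 5.25 and the long noncoding RNA Miat at 80.5 then 2.25. Enox1, Zfp459, Morc1, Nphs1 and Cyp2s1 completed the set, at 544 then 51, 407 then 38.3, 350.4 then 33.8, 240.0 then 22.5 and 528 then 60.0.

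Germline genes were counted with the shares over all tested genes, 13.4% higher and 7.07% lower, in view. Stra8 is on this list, as is Rec8, the meiotic cohesin, at 159 then 956, and Mael, a piRNA pathway protein, at 53.2 then 131; these were the 3 higher members of 12 tested. Sycp1, of the synaptonemal complex, was the 1 lower member, at 143 then 54, and its log2 change of -1.25 was -0.03 after correction for GC content and length. With that correction 6 of the 12 were higher, Dazl (29 to 37.5), Gm1564 (91.8 to 182) and the receptor Kit (1024 to 2040.2) being added, and 1 lower, Tfap2c (599 to 314).

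Genes of DNA methylation, Polycomb and NuRD were counted as separate lists. Tet1, which oxidises methylated cytosine, stood at 6782 then 1051 and was 6.45-fold lower (95% counting interval 6.1 to 6.83), while Tet2 stood at 3367 then 1614 and Tet3 was higher, at 188 then 396. Tet2 and Tet3 lie near the size limit: after correction for GC content and length their log2 changes were -0.86 and 0.61. With Dnmt3l, they made 3 lower and 2 higher of 12 tested genes of DNA methylation and demethylation, the other higher one being Gadd45b at 48.3 then 173; the median log2 change of this list was 0.12, as over all genes. Polycomb repressive complex 2, which methylates histone H3, had 0 of 10 members higher and 3 lower: the core subunit Suz12 at 4963 then 1621 and the accessory subunits Mtf2 at 3066 then 1429.9 and Phf19 at 178 then 71.3. With the GC and length correction 1 of the 3 remained past 2-fold, and Suz12 stood at a log2 change of -0.65 in place of -1.61. The NuRD complex had 2 of 14 higher, near the 13.4% over all tested genes, and 0 lower; these were the neural helicase Chd5 at 226 then 667 and Chd3 at 415 then 971.

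The miR-290 to miR-295 cluster, the dominant microRNA cluster of mouse embryonic stem cells, was looked at after values were seen. Its 7 annotated hairpins together held 303 reads in shGFP UT and 64 in shGFP RA, 5.08-fold lower per library (95% counting interval 3.87 to 6.76). Libraries made this way hold longer transcripts, so these are reads of precursors and do not measure the mature microRNAs. Mir291b, Mir293 and Mir295 passed the minimum, at 52.4 then 8.26, 34.6 then 9.01 and 93.4 then 15.8, and all 3 were at least 2-fold lower, as was AU018091 (ENSMUSG00000054753, chromosome 7, 3154665 to 3169204 in mm9), a gene annotated on the same chromosome before the first hairpin, which begins at 3218627; it stood at 1418 then 580.2. The mature 3′ arms of these 3 hairpins, from RefSeq (GRCm38.p6), are given because their seeds (bases 2 to 8, in capitals) show what they share: miR-291b-3p and miR-295-3p have seeds that begin with AAGUGC, the start known from this family, and miR-293-3p has another.
miR-291b-3p: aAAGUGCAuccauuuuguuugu
miR-293-3p: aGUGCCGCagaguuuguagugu
miR-295-3p: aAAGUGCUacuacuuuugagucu

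Signalling genes differed in both directions, and the counts of each pathway stand beside 13.4% higher and 7.07% lower over all tested genes. In the Nodal and activin pathway 2 of 17 tested members were higher and 3 lower: the coreceptor Tdgf1 and the inhibitors Lefty2 (563 to 155) and Fst were lower, while Lefty1 was among the higher ones. In the BMP pathway 5 of 18 were higher and 3 lower. The ligand Bmp4 was 7.73-fold lower (95% counting interval 6.71 to 8.95), from 1259.7 to 163, and the ligand Bmp6 stood at 13.7 then 81.1. Of BMP targets, Id3 and Id4 were lower (772 to 345 and 138 to 25.5), and Msx1, Msx2 and the inhibitory Smad6 were higher (7.25 to 69.1, 113 to 432 and 51.5 to 381).

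The FGF pathway had lower ligands and higher receptors. Fgf4, the main FGF of embryonic stem cells, stood at 2893 then 564 and Fgf17 at 91 then 10.5. The receptors Fgfr1, Fgfr2 and Fgfr4 stood at 1264 then 3693, 84.6 then 873 and 20.9 then 71.3. Among feedback inhibitors of ERK signalling Spry2 and Spry4 were lower, at 1029 then 487 and 2583 then 469.9, and Dusp5 was higher, at 122 then 324; over all 20 tested members, 6 were higher and 5 lower (13.4% and 7.07% over all genes), with 4 and 3 after the GC and length correction. Dusp9, an ERK phosphatase outside this list, stood at 1905 then 13509.

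Wnt genes showed 9 of 22 higher and 3 lower, with a median log2 change of 0.37, where 13.4% and 7.07% of all genes were; with 50 added in place of 10, 5 were higher. The ligands Wnt5b and Wnt8a stood at 7.25 then 80.3 and 3.22 then 62.3, and Wnt6 was lower at 161 then 48.8. Of the Frizzled receptors, Fzd2 stood at 64.4 then 626 and Fzd5 at 1249 then 602. The secreted inhibitors differed in direction, Sfrp5 at 41.9 then 340.0 and Sfrp1 at 3056 then 1196. In the Notch pathway 1 of 15 was higher, the receptor Notch2 (670.1 to 1652), and 2 lower, the ligand Jag1 (308 to 42) and the receptor Notch4 (319.7 to 77.3).

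Hedgehog, IGF and imprinted genes stand beside the same shares of 13.4% and 7.07%. Of 13 Hedgehog genes 6 were higher, among them the ligand Ihh and the coreceptors Gas1, Cdon (173 to 555) and Boc (114 to 462), and 1 was lower, the pathway target Gli1 at 252 then 93.1. Of 13 IGF and insulin genes 5 were higher (3 with 50 added) and 0 lower. Igf2, a fetal growth factor, stood at 51.5 then 1108, which is 21.5-fold higher (95% counting interval 16.7 to 28.1), and the binding proteins Igfbp4 and Igfbp5 at 46.7 then 233 and 2.42 then 123; Irs1, a receptor substrate, stood at 12.9 then 56.3. Igf2 is imprinted, as are H19 at 4.03 then 53.3, Dlk1 at 15.3 then 246 and Ndn at 182 then 745. Among all 22 tested imprinted genes 9 were higher and 2 lower, Zdbf2 at 3409 then 492 and Snrpn at 4311 then 1782; Snrpn had a log2 change of -0.55 after the GC and length correction.

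Receptors and ligands of cell guidance were higher in many cases. Of 53 tested semaphorin, plexin, neuropilin, ephrin, Slit and netrin genes, 27 were higher and 4 lower, with a median log2 change of 1.01. With 50 added in place of 10, 14 were higher, and with equal upper quartiles 20 were, with a median of 0.87. After the GC and length correction 18 were higher, with a median of 0.67. Over all tested genes 13.4% were higher and 7.07% lower. The plexins Plxna2 and Plxnd1 stood at 66 then 1015 and 3.22 then 103, the neuropilin Nrp1 at 23.4 then 351 and the semaphorin Sema6a at 49.1 then 554. Lower were the netrin Ntn1 at 1978 then 415, Nrp2 at 1404 then 576, Sema5b at 215 then 51.8 and Plxna4 at 47.5 then 18. The related neuropilins Nrp1 and Nrp2 thus lay on opposite sides.

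Adhesion and matrix genes gave mixed counts, beside 13.4% higher and 7.07% lower over all tested genes. Of 15 integrins 3 were higher, Itga3, which binds laminin (849 to 4347), Itga5, which binds fibronectin (942 to 1966), and Itga8 (34.6 to 94.6), and 1 was lower, Itgb7 (366 to 105). Itga5 was under 2-fold with equal upper quartiles. Collagens other than type IV had 8 of 14 higher (5 with 50 added), among them Col13a1 (from 10.5 to 231), Col16a1 (from 6.44 to 80.3), Col9a2 (from 228 to 787) and Col23a1 (from 8.05 to 60.8), and 1 lower, Col5a3 (from 179.6 to 80.3). Epithelial junction genes had 4 of 21 higher and 3 lower. The lower ones were P-cadherin Cdh3 at 675 then 301, the splicing factor of epithelia Esrp1 at 176 then 23.3 and Grhl2. The higher ones were Cldn3 (52.4 to 117), Ocln (54 to 127), Dsp (783 to 1636) and Prss8 (41.9 to 116), of which 1 stayed past 2-fold with equal upper quartiles.

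Contractile and actin genes had 7 of 24 higher and 0 lower, where 13.4% and 7.07% of all genes were. The named members were Flnc (from 394 to 1260.3), Zyx (from 167 to 579) and Tpm1 (from 685 to 1804), which build or anchor actin filaments, and the matrix protein Cyr61 (from 80.5 to 280.0).

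Several genes of glycolysis were lower with RA. Of 22 glycolytic genes 0 were higher and 6 lower, with a median log2 change of -0.62 against 0.12 over all genes. Over all tested genes 13.4% were higher and 7.07% lower, here and for the respiratory chain below. The median untreated level of the glycolytic genes was 2881. In the fifth of genes highest untreated (from 1049) 2.03% were higher and 9.18% lower. Ldha, which makes lactate, was 3.31-fold lower (95% counting interval 3.21 to 3.41), from 13139 to 3970.0. The phosphofructokinase Pfkp stood at 7389 then 2521, the pyruvate kinase Pkm2 at 33444 then 13741 and the lactate exporter Slc16a3 at 2161 then 719.8. Genes of this pathway such as Ldha and Pkm2 have processed pseudogenes, so how shared reads were assigned is uncertain. Of 82 nuclear genes of the respiratory chain 2 were higher, Cox6a2 (from 11.3 to 47.3) and Cox7a1 (from 36.2 to 169.6), both muscle forms, and 1 lower, Ndufa4l2 (from 58 to 7.51). Of the 12 tested genes of the mitochondrial genome 0 were past 2-fold in either direction, with mt-Co1 at 40392 then 33059.8, mt-Nd1 at 20857 then 16298 and mt-Cytb at 14782 then 11555. Their call turns on the GC and length correction, after which 7 of the 12 were at least 2-fold higher and the median log2 change was 1.06 in place of -0.27, with mt-Co1 at 0.56 in place of -0.29.

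Amino acid, lipid and stress genes mostly lay within 2-fold, as did 79.6% of all tested genes. In serine, glycine and one-carbon metabolism 2 of 20 were higher and 2 lower, Tdh and Gldc, both of glycine metabolism, the latter at 2359.8 then 747; the higher ones were Bhmt (from 6.44 to 30.8) and Bhmt2 (from 19.3 to 52.5). Of 23 cholesterol genes 1 was higher and 0 lower, with the master regulator Srebf2 at 2974 then 3556. The unfolded protein response had 1 of 20 higher, Atf3 (from 155 to 371), with Calr, Canx and Asns at 8885 then 12362, 9848 then 7379 and 8856 then 10576. Heat shock genes had 0 of 20 higher and 1 lower, Hsp90aa1 at 12377 then 5048, with Hspa4 at 12087 then 11124. Of 12 hypoxia genes 1 was higher, Egln1 (from 431 to 1059), and 3 lower, Bnip3 (from 444 to 148), Pdk1 (from 2080.4 to 767) and Ndrg1 (from 306 to 119).

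Solute carriers were counted as a family. Of 192 tested, 34 were higher and 13 lower, beside shares of 13.4% and 7.07% over all genes; with 50 added 20 were higher. Among the highest were Slc22a23 (from 20.9 to 342), Slc43a3 (from 31.4 to 302) and Slc25a21 (from 2.42 to 72.8). Lowest beside Slc17a9 were Slc23a1 (from 149 to 12), Slc6a15 (from 322 to 45) and Slc28a1 (from 424 to 64.6), carriers of ascorbate, neutral amino acids and nucleosides.

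Growth and cycle genes had no common direction. Myc and Mycn stood at 533 then 209 and 1467 then 472, both at least 2-fold lower. Cyclin D1 (Ccnd1) was lower, at 2145 then 710.1, and cyclin D2 (Ccnd2) higher, at 547 then 2014, and the kinase Cdk6 stood at 191 then 82.6. The inhibitors Cdkn2a and Cdkn2c stood at 103 then 297 and 10.5 then 48.8, and the Max partner Mxd4 at 139 then 673. Over the 27 genes of this list 5 were higher and 4 lower, where 13.4% and 7.07% of all genes were.

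Replication and mitosis genes had 0 higher, where 13.4% of all genes were higher and 7.07% lower. The median untreated levels of these lists were 1734 and 1387. In the fifth of genes highest untreated (from 1049) 2.03% were higher and 9.18% lower. Of 26 replication genes 1 was lower, the polymerase subunit Pola1 at 2178 then 876, while the helicase subunits Mcm3, Mcm5 and Mcm7 were at 4844 then 4044, 9045 then 7041 and 4754 then 4035. Of 20 mitosis genes 3 were lower, the checkpoint kinase Bub1 (from 1432 to 572) and the kinetochore proteins Cenpe (from 1093 to 333) and Cenpf (from 925 to 343). Pola1 and Bub1 stood at -0.83 and -0.42 after the GC and length correction, within 2-fold. Of 79 cytosolic ribosomal protein genes 0 were past 2-fold, with Rpl4, Rpl8 and Rps3 at 31644 then 30506, 22010.1 then 19488 and 18183 then 18006.

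Death genes gave 4 of 13 higher and 1 lower in the Bcl2 family, where 13.4% and 7.07% of all genes were. Higher were the survival gene Bcl2l1 (from 1004 to 2656) and the death genes Bad (from 98.3 to 239), Bmf (from 173 to 549) and Bcl2l11 (from 443 to 1055). The lower one was Pmaip1 (Noxa), a p53 target, at 123 then 52.5. Among 16 p53 targets 1 was higher, Sesn1 (from 330.2 to 1284), and 2 lower, Pmaip1 and Trp53inp1 (from 3553 to 1743); after the GC and length correction the counts were 2 and 0.

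Markers of other cell types were counted to describe what else the RA library holds. Over all tested genes 13.4% were higher and 7.07% lower. Of 20 neural markers in the file 11 were tested, 5 higher and 2 lower (summed level 2680.4 untreated and 2133 with retinoic acid): Pax6 stood at 29.8 then 175, Irx3 at 11.3 then 209 and Gfap at 8.05 then 51, while the neuronal factors Neurog1, Neurog2 and Neurod1 missed the minimum. Of 19 mesoderm and primitive streak markers 6 were tested, 3 higher and 1 lower (summed level 519 untreated and 1643 with retinoic acid): Cdx1, Wnt8a and Wnt3 (from 21.7 to 58.5) were higher, Evx1 was lower, and T, Mixl1, Mesp1 and Tbx6 missed the minimum. Of 13 trophoblast markers 7 were tested with 2 higher, Gata3 (from 30.6 to 131) and Esx1 (from 44.3 to 333), and 0 lower (summed level 1198 untreated and 1519 with retinoic acid).

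Mesenchymal genes had 7 of 11 tested members higher and 1 lower (summed level 3077 untreated and 8312 with retinoic acid). The shares over all tested genes were 13.4% higher and 7.07% lower, here and for the lists below. Pdgfrb, a growth factor receptor of mesenchyme, stood at 28.2 then 465, Fbln1 at 548 then 2068 and Col5a1 at 208 then 628, and Thy1 (from 83 to 21.8) was lower. The fibrillar collagens Col1a1, Col1a2 and Col3a1 missed the minimum. Endothelial genes had 2 of 6 higher, Cdh5 (from 12.1 to 155) and Flt1 (from 15.3 to 71.3), and 1 lower, Pecam1 (from 987 to 408), which embryonic stem cells also express. Of 8 blood markers 2 were tested and 0 were past 2-fold, with Cd68 at 131 then 72.1 and Itgam at 28.2 then 35.3. The part of other cell types in the results above was not tested.

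Interferon-response genes had 6 of 13 tested members higher and 1 lower, where 13.4% and 7.07% of all genes were; 10 of the 23 on the list were not tested. Oasl2, an interferon-induced relative of the oligoadenylate synthetases, had 0 reads untreated and stood at 79.6 with RA, at least 32.9-fold higher against a floor of 3 reads. The antigen presentation genes B2m and Tap1 stood at 51.5 then 219.9 and 98.3 then 358, and Ifi35 (from 5.64 to 60.8) was higher too. The lower member was the RNA sensor Ddx58 (RIG-I) at 643 then 108.

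**Figure D5:**
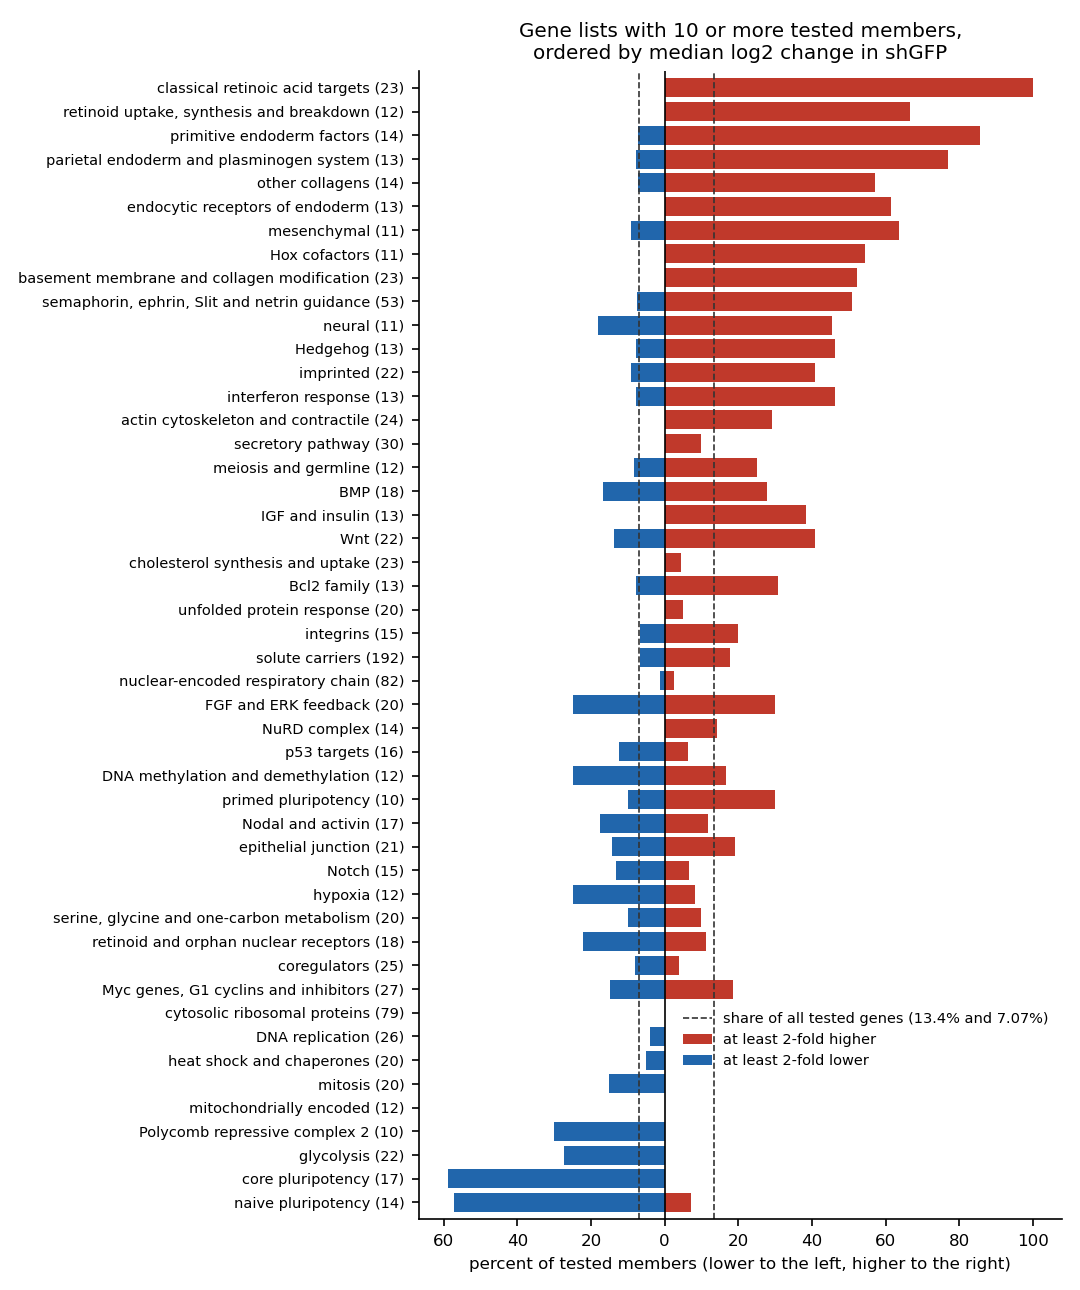
Share of tested members (x axis, percent) at least 2-fold higher (to the right) and at least 2-fold lower (to the left) with RA in shGFP, for the gene lists with 10 or more tested members (y axis, number tested in brackets), with the shares over all 12332 genes as dashed lines. The classical target, primitive endoderm and parietal endoderm lists reach farthest to the right and pluripotency lists farthest to the left.

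In numbers of reads, as opposed to fold, the largest gain was that of the lipid synthesis gene Scd2, from 16069 to 27806, within 2-fold. Next came Dusp9 (1905 to 13509), then the lipid synthesis gene Fasn, from 31354 to 40251, also within 2-fold. The glutamine transporter Slc1a5 (2032 to 9679.9), Col4a1, the single-strand DNA binding protein Rpa1 (3204 to 9895) and Stra8 followed. Serpinh1, the heparin-binding growth factor Mdk (743 to 6701) and Maged1 (3172 to 8914) completed the 10.

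The largest losses were those of Pkm2, the nucleolar proteins Ncl (24062 to 9943) and Npm1 (18723 to 7358), the noncoding RNA Malat1 (13027 to 2886) and Pou5f1. Next were Ldha, the cell cycle factor Mybl2 (15297 to 6205), the glycolytic enzyme Aldoa (14471 to 6548), Hsp90ab1 (72975 to 65398) and mt-Co1. The last pair lay within 2-fold, and the log2 change of Npm1, -1.35, was -0.48 after the GC and length correction.

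The neighbours of strongly responding genes on the chromosome were examined next. Neighbours were counted by position on each side of a responding gene, so a gene flanked on both sides counted for each. The shares here are therefore not shares of distinct genes. Of 870 positions next to genes at least 4-fold higher, 227 (26.1%) held a gene at least 2-fold higher, against 13.4% of all tested genes. Leaving out overlapping neighbours it was 215 of 839 (25.6%). Of 244 positions next to genes at least 4-fold lower, 53 (21.7%) held a gene at least 2-fold lower, against 7.07%. The counting is not stated to use strand, so reads of overlapping genes cannot be told apart. Runs of at least 4 adjacent tested genes past 2-fold in the same direction were picked out after values were seen: 12 higher runs held 60 genes and 10 lower runs held 61.

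The longest higher run held 11 genes on chromosome 6 (51809165 to 52190853 in mm9), 8 Hoxa genes and their neighbour Skap2 among them, with a median log2 change of 2.92. Other runs held 6 Hoxb genes on chromosome 11 (96132771 to 96229570), Samd14, Pdk2, Itga3 and Dlx3 on the same chromosome (94616451 to 94986610), and Stra6 with Cyp11a1, Ccdc33 and Islr2 on chromosome 9 (57862820 to 58052126). The Hoxa and Hoxb runs kept all their genes past 2-fold after the GC and length correction.

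The longest lower runs were made of zinc finger genes and their relatives. The first held 13 genes on chromosome 4 (145658647 to 147183895), Zfp600 and Zfp534 among them, with a median log2 change of -1.70 and a median GC content of 38.2%, and 4 of the 13 were still at least 2-fold lower after the GC and length correction. The second held 12 genes on chromosome 7 (48734250 to 50481703), with Zfp788 and Zfp936, a median GC content of 39.7% and 4 genes still lower after it. Genes in these clusters have near-identical copies, so their read assignment is uncertain. Over all 324 tested genes named Zfp with a number, 62 were at least 2-fold lower and 23 higher, and the lower count was 20 after the correction. Of 156 lincRNAs 38 (24.4%) were lower and 6 (3.85%) higher, beside the same 7.07% and 13.4%. Only 82 of them had a GC value, so the GC and length correction is void for this class and its counts are not given.

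GC content moved with the response across genes, which bears on these runs and on every list whose genes are rich or poor in GC. From the fifth of genes lowest in GC to the fifth highest, the share at least 2-fold higher went from 4.0% to 24% and the share at least 2-fold lower from 17.1% to 3.58%. Spearman's correlation of log2 change with GC content over 12133 genes was 0.37 for the shGFP line, 0.63 for the shCtbp2 line and -0.06 for the shRxr line; the genes share the same 2 libraries within a line and are not independent replicates. With GC content and length corrected, 1451 genes were higher and 609 lower, of which 1272 and 474 were also called without the correction. Named genes past 2-fold that lay under it after the correction, beside those already given, were Hspg2, Pknox2, Mir293, Zfp600, Zfp534, Zfp788, Spry2, Dusp5, Notch2, Wnt3, Cldn3, Dsp, Prss8, Itga5, Bad, Egln1, Chd3, Mtf2, Pmaip1 and Trp53inp1. With equal upper quartiles Rdh10, Ctsl, Wnt3, Cldn3, Ocln, Dsp, Itga5, Bhmt2, Creb3 and Tet3 were under 2-fold, and Apoe and Tgif1 were past it.

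The same genes were set beside the responses of the other lines, which have control libraries of their own. Of the 1649 genes at least 2-fold higher in shGFP, 94.6% had a log2 change above 0 in shCtbp2 and 98.7% in shRxr, against 52.4% and 59.7% of all genes tested, and their medians on the log2 scale were 1.5 (shGFP), 1.37 (shCtbp2) and 0.81 (shRxr). Of the 435 past 4-fold, 388 (89.2%) were at least 2-fold higher in shCtbp2 and 361 (83.0%) in shRxr, where 15.1% and 5.26% of all genes were. For the 872 lower genes the shares below 0 were 97.6% and 79.5%, and the medians -1.34, -1.51 and -0.35. Of the 122 past 4-fold in this direction, 106 were at least 2-fold lower in shCtbp2 and 83 in shRxr, where 19.3% and 1.46% of all genes were. None of these values were corrected for GC content, which moved with the response in shGFP and shCtbp2 and hardly in shRxr. The 2427 genes lowest in GC content held 415 of the 872 lower genes. Over those 2427 the median log2 change was -0.33 (shGFP), -1.02 (shCtbp2) and 0.14 (shRxr). Whether the lower genes would match shCtbp2 more closely than shRxr at equal GC content was not tested. Differences between lines could not be tested with 1 library a group.

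For single genes the values were as follows. Stra8 had a log2 change of 7.82 in shGFP against 7.63 (shCtbp2) and 4.40 (shRxr); its untreated level in shRxr was 193, against 18.5 in shGFP. Crabp2 stood at 5.85 in shGFP against 1.99 (shCtbp2) and 3.16 (shRxr), and Hoxb1 at 5.70 against 3.53 (shCtbp2) and 3.61 (shRxr). For Pou5f1 the value was -1.09 in shGFP against 0.50 (shCtbp2) and -0.47 (shRxr), and for Otx2 -4.59 against -3.93 (shCtbp2) and -2.93 (shRxr). Meis2 stood at 2.57 in shGFP and at 0.20 in shCtbp2.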

How the data were processed

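RNA of 6 F9 cultures was sequenced on an Illumina HiSeq 2000 from TruSeq libraries, per the labels' protocols. TopHat 1.4, HTSeq and the mm9 build are named in the submitters' processing notes; no source here states the strand and multi-mapping settings. The deposited values are on a log2 scale: reads per 10000000 counted in genes, plus 1, and turning them back gave whole reads for 100% of values (within 1e-06 of a read). From these, log2 changes on the level plus 10 were computed with Python 3.11.15, pandas 2.3.3, numpy 2.4.6 and scipy 1.17.1, for genes whose mean level across libraries reached 20; the script was tested on simulated data. A fold is the ratio of levels, with an exact 95% Clopper-Pearson interval on the reads. Against 0 reads a floor of 3 was used. Counts past a fold use the log2 change on the level plus 10, so that at least 2-fold is a change of 1 or more. GC content and length came from mouse transcripts by gene ID (12133 of 12332 genes), and 25 symbols that a spreadsheet had turned into dates were restored by ID.

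Members and the 58 gene lists were chosen with earlier results of these data known, and patterns for 4 gene families were tidied by name afterwards. Named genes are the 25 highest and 25 lowest by log2 change, the 10 largest gains and losses, up to 4 per direction in each list (up to 3 of the highest mean level where at most 1 reached 2-fold), the markers, hairpin targets, receptors and all Hox genes. Other genes are named as members of a list whose count is given or were chosen after their values were seen. Some genes that this rule names are not reported here. Alternatives tried were the added constant, the filter, the scaling and a GC and length correction.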

Additional observations from a re-analysis of the deposited data

Results flagged for a closer look

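Dsp, the desmosome protein desmoplakin, was singled out because its response had opposite signs in different lines. In shGFP it stood at 783 then 1636 normalised reads, a log2 change of 1.05, and in shCtbp2 at 2106 and 882, a log2 change of -1.25. In shRxr the values were 973 and 964. With 1 library a group the difference between lines was not tested.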

How the results depend on the processing

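With 50 added in place of 10, the higher and lower counts were 1049 and 548 in place of 1649 and 872, and with a minimum mean of 100 the higher count was 933 (lower 622). Both are smaller by construction, as low genes count for less or are left out. With no filter 2046 were higher and 979 lower of 23886 genes, and the median log2 change was 0.00. With 1 added the counts were 1832 and 988, with the minimum set on the shGFP libraries alone 1737 and 864. Median-of-ratios scaling gave 1450 and 1044. The median log2 change of all genes, 0.12, became -0.039 when upper quartiles were set equal and 0.00597 by median-of-ratios scaling, so lists whose medians lie near 0 have no firm direction: 13 of 58 list medians changed sign with the former, 9 with the latter and 12 with the GC and length correction. Of the genes named by the rule, none past 2-fold changed sign under any of these alternatives, but 35 were under 2-fold with 50 added, 22 after the GC and length correction, 8 with upper quartiles set equal and 5 by median-of-ratios scaling. No library could be left out, since each group holds 1. No paired analysis was possible because each group has 1 library and no result comes from a test. Depth limits genes of a few reads, whose intervals are wide.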
